A study of Ovis aries with 2 samples.

Results

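Described here are 8 genes of arterial endothelial identity and of the endothelial response to flow: GJA5, BMX, SOX17, NOS3, TEK, TIE1, NPPC and KLF4. They were taken by exact gene symbol from the 21890 genes listed for each of 2 single-cell libraries of sheep (Ovis aries), and all 8 were found in both. One library came from a native carotid artery, which its title calls an aorta. The other came from an H2R5-ATEV, a vascular graft that held no cells when it was implanted and that was taken out after 12 weeks. Both are labelled as from sheep of 1 to 2 years, with no genotype, sex or added agent given, and the number of animals is not given. In both, cells were freed by filling the clamped vessel with collagenases, elastase, neutral protease and DNase, so that the lumen met the enzymes first, and red cells were lysed before a capture aimed at about 10000 cells. With 1 library of each tissue no test between them is possible, and each difference describes these 2 libraries.

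Endothelial cells of arteries differ from those of veins in a set of genes established by Notch signalling and SOX factors and maintained by blood flow. GJA5 encodes connexin 40, which forms gap junctions between arterial endothelial cells, and BMX encodes a TEC family tyrosine kinase long used as an arterial endothelial marker. SOX17 and KLF4 encode transcription factors, the first needed for arterial fate and the second induced by laminar shear stress, though also used by many other cell types. NOS3 makes nitric oxide, TEK is the receptor for angiopoietins, TIE1 is its partner receptor, and NPPC encodes C-type natriuretic peptide, a vasodilator released by endothelium.

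After filtering, 10080 native barcodes (median 1493.5 UMIs, the unique molecular identifiers that count RNA molecules) and 1074 graft barcodes (median 20832 UMIs) were kept. The libraries shared 7 barcode sequences. A barcode was called endothelial-marked if PECAM1, CDH5, ESAM and CLDN5 together gave at least 2 UMIs and at least 5 per 10000 of its UMIs. This held for 5372 native barcodes (median 1849.5 UMIs) and 369 graft barcodes (median 29254 UMIs). The rule rested mostly on PECAM1, which gave 76.5% of the native and 83.9% of the graft marker UMIs and which leukocytes also express. It marks a range and not a cell type: 103 native and 61 graft barcodes lay between 5 and 7.5 per 10000, and 93 and 91 lay just under it. Of the marked barcodes, 952 native (17.7%) and 121 graft (32.8%) also passed the marker list of another cell type, mainly fibroblast (638) or macrophage (324) in the artery and macrophage (110) in the graft. Values are therefore given for all marked barcodes and for the 4420 native and 248 graft barcodes that passed no other list.

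The 8 genes divided into a pair much lower in the graft, 1 gene much higher, and 5 within about 2-fold. Among all endothelial-marked barcodes, NPPC was past 2-fold higher in the graft, and GJA5, BMX and TEK were past 2-fold lower. Of the 15808 genes with at least 10 UMIs, 18.4% lay 2-fold or more above and 14.4% lay 2-fold or more below the artery, so the number of the 8 past 2-fold is not in itself a result. Among barcodes passing no other list NPPC remained higher and GJA5 and BMX lower, with 15.4% and 16.8% of 15181 genes past 2-fold in each direction. In those barcodes the median log2 ratio, taken after adding 5 CPM (UMIs per 1000000 of the class), was -0.30 for the 8 genes and -0.02 for all counted genes.

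**Figure D1:**
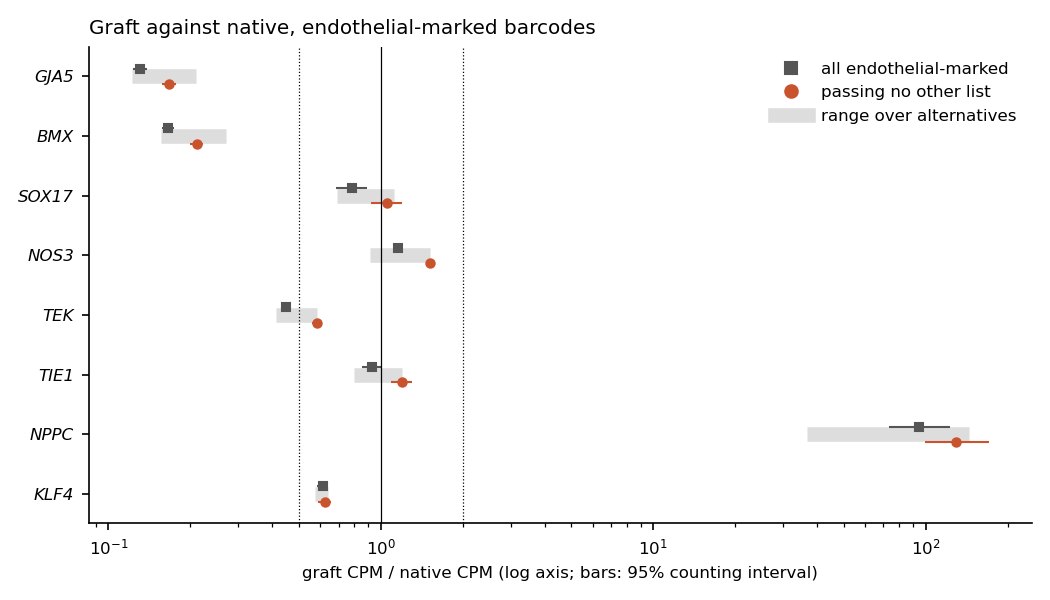
Ratio of graft to native CPM for each gene on a log axis, in all endothelial-marked barcodes (squares) and in those passing no other list (circles), with 95% counting intervals; grey bars span all alternatives tried and dotted lines mark 2-fold. GJA5 and BMX lie below 0.5 and NPPC above 2 throughout, while SOX17, NOS3 and TIE1 lie on both sides of 1.

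GJA5, the connexin 40 gene, was at 673 CPM in the native endothelial-marked barcodes (95% counting interval 662 to 685; 13187 UMIs) and at 88.1 CPM in those of the graft (83.3 to 93.1; 1272 UMIs). Among barcodes passing no other list it was at 712 and 119 CPM, which is 6.0-fold lower in the graft (5.66 to 6.37). BMX, the TEC family kinase gene, was at 644 CPM in the native set and 107 CPM in the graft set, and at 692 and 146 CPM in barcodes passing no other list. That is 4.74-fold lower in the graft (4.49 to 5.01). Both genes kept at least a 3.69-fold deficit under every alternative tried, between 4.79- and 8.23-fold for GJA5 and between 3.69- and 6.40-fold for BMX.

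The transcription factor genes differed less. SOX17, the arterial fate factor, was at 31.4 CPM in the native set (29.0 to 34.0) and 24.6 CPM in the graft set (22.1 to 27.3). In barcodes passing no other list it was at 33.0 and 34.7 CPM, a ratio of 1.05 (0.917 to 1.20), so its direction depended on which barcodes were taken. KLF4, the shear-induced factor, was at 283 CPM in the native and 173 CPM in the graft set, and at 286 and 178 CPM in barcodes passing no other list, 1.61-fold lower in the graft (1.52 to 1.70).

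NOS3, whose enzyme makes nitric oxide in endothelium, was at 471 CPM in the native set (462 to 481) and 544 CPM in the graft set (532 to 556). In barcodes passing no other list it was at 499 and 754 CPM, 1.51-fold higher in the graft (1.47 to 1.56). With equal weight for each marked barcode its ratio was 0.912, and with counts thinned to 1000 UMIs per barcode it was 0.958, so its direction was not stable.

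The angiopoietin receptor TEK was at 581 CPM in the native set and 260.3 CPM in the graft set, 2.23-fold lower (2.15 to 2.32). In barcodes passing no other list it was at 624 and 362 CPM, 1.72-fold lower (1.66 to 1.79). TEK was past 2-fold in 6 of the 14 alternatives and lower in all 14. TIE1, its partner receptor, was at 69.5 and 64.3 CPM in the native and graft sets and at 73.6 and 87.8 CPM in barcodes passing no other list, a ratio of 1.19 (1.09 to 1.30). The receptor and its partner thus differed between the libraries in unlike ways, with TEK lower and TIE1 near its native level.

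NPPC, the C-type natriuretic peptide gene, was near 0 in the artery and high in the graft. The native endothelial-marked barcodes held 61 NPPC UMIs (3.11 CPM, 2.38 to 4.0), while those of the graft held 4230 (293 CPM, 284 to 302). In barcodes passing no other list the levels were 3.17 and 409 CPM, 129-fold higher in the graft (99.1 to 171). A single native barcode gave 34.4% of the native NPPC UMIs, and the graft barcode with the most gave 12.6% of those in the graft set.

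In the other named classes 7 of the 8 genes were low in both libraries, except for GJA5 in smooth muscle, described below. KLF4 was not low. KLF4 was at 352 CPM in native fibroblasts and 167 CPM in native macrophages, and at 145 CPM in both graft fibroblasts and graft macrophages, against 4.57 CPM in native T or NK cells. Its level therefore did not separate endothelium from fibroblasts in the artery. In native T or NK cells, which should lack endothelial genes, GJA5 was at 10.9, BMX at 14.1, NOS3 at 10.9 and TEK at 12.6 CPM. These levels are small beside those of the endothelial-marked barcodes. In graft macrophages the same 4 genes were at 0.918, 1.05, 4.2 and 2.89 CPM. How much of such levels came from free RNA was not tested. Thinned to 1000 UMIs, GJA5 was found in 5.53% of native fibroblasts and 2.00% of native T or NK cells. Thinned to 5000 UMIs, the shares were 2.81% and 4.21%, so neither class was lower at both depths. Barcodes that passed no list at all differed between the libraries: the 1879 native ones (median 797 UMIs) had 176 CPM of GJA5 and 189 CPM of BMX, and the 169 graft ones (median 4255 UMIs) had 6.89 and 2.76 CPM.

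**Figure D2:**
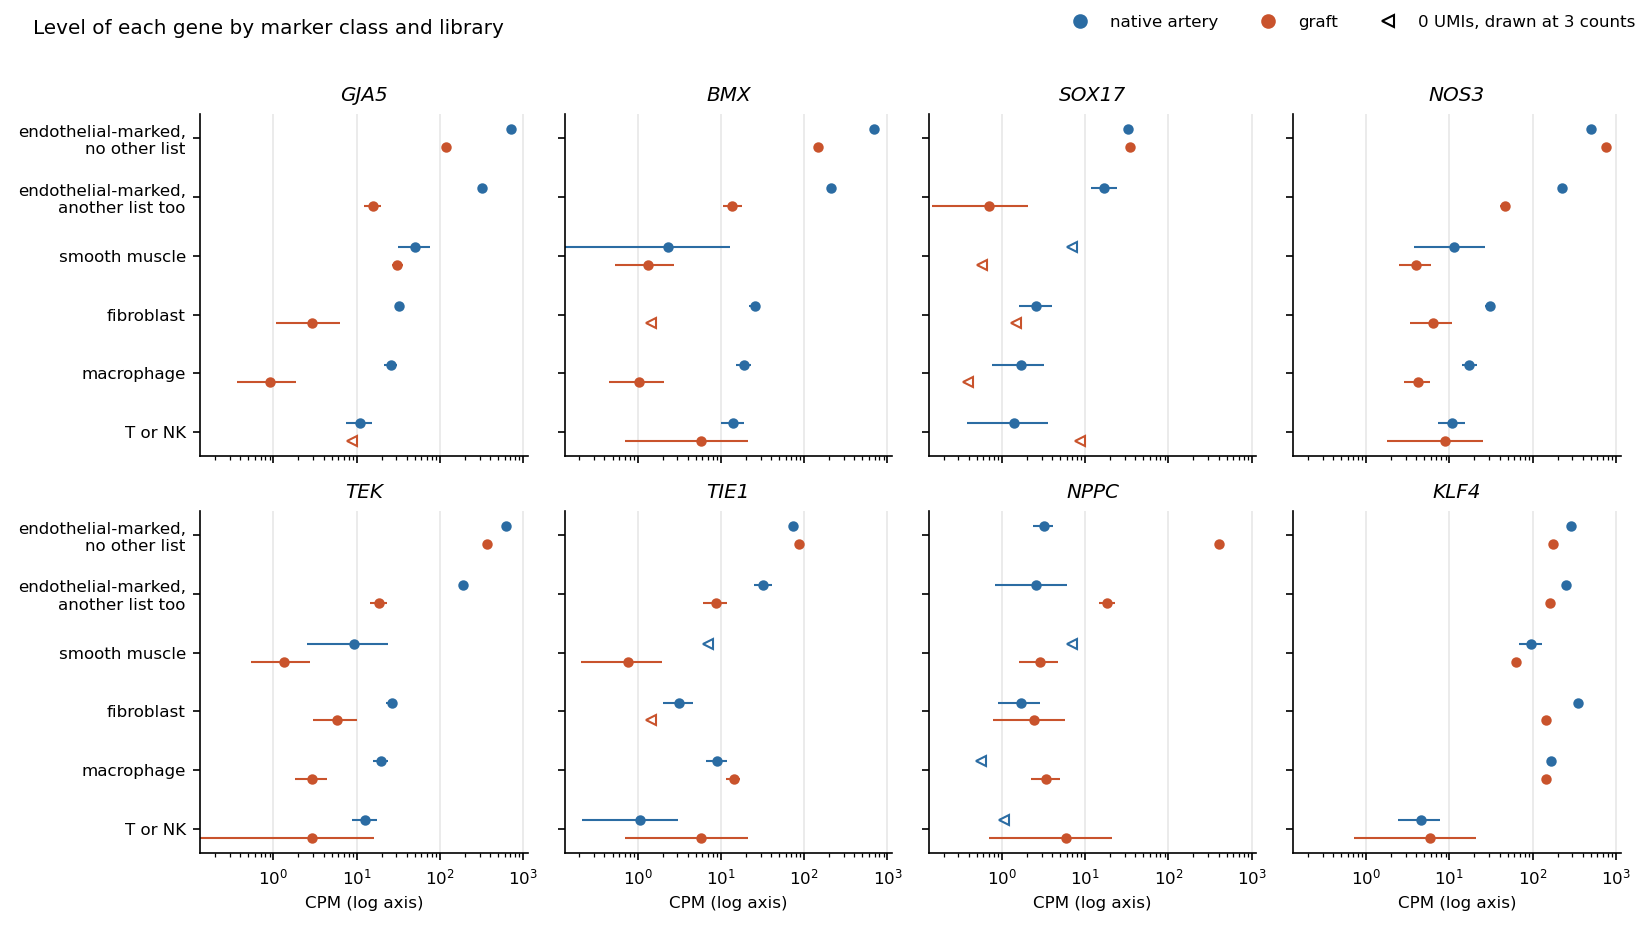
CPM of each gene (log axis) by marker class in the native artery (blue) and graft (orange), with 95% Poisson intervals; open triangles are classes with 0 UMIs, drawn at the level of 3 counts. Endothelial-marked barcodes passing no other list are highest for 7 genes in both libraries or, for NPPC, in the graft, while KLF4 is as high in native fibroblasts.

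GJA5 was also present in smooth muscle. In the graft 48 of 113 smooth muscle barcodes held it (162 UMIs, 30.8 CPM, 26.2 to 35.9), while the same barcodes held 7 UMIs of BMX and 7 of TEK. In the artery 15 of 58 smooth muscle barcodes held it (22 UMIs, 50.7 CPM), with 1 UMI of BMX. The endothelial-marked graft barcodes, by contrast, held more BMX (1540 UMIs) than GJA5 (1272 UMIs), so the proportion of the 2 genes differed between the classes. TIE1 was at 14.2 CPM in graft macrophages (108 UMIs in 39 of 243 barcodes), where TEK was at 2.89 CPM. A single barcode gave 35.2% of those TIE1 UMIs and the 25 with the most gave 87.0%. Whether these barcodes also hold endothelial RNA was not tested.

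In the graft, the barcodes that passed a second marker list were low in the 7 genes other than KLF4. There GJA5 was at 15.6 CPM, BMX at 13.8, NOS3 at 46.7, TEK at 18.4 and SOX17 at 0.70 CPM, while KLF4 stayed at 162 CPM. In the native barcodes of this kind GJA5 was at 316, BMX at 208 and NOS3 at 223 CPM. These levels were below the 712, 692 and 499 CPM of native barcodes passing no other list, but were not low. In the graft barcodes of this kind the summed macrophage markers were at 8686 CPM and the endothelial markers at 947 CPM. In the native ones they were at 4095 and 2039 CPM. Whether these barcodes are endothelial cells or PECAM1-expressing leukocytes was not tested, so their low levels do not describe graft endothelium. Because their share was larger in the graft, the distribution over barcodes is described only for those passing no other list.

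To compare barcodes at equal depth, each was thinned at random to 5000 UMIs, which left 1210 native and 196 graft barcodes and removed 3210 and 52 shallower ones. GJA5 was then found in 1097 native barcodes (90.7%, exact 95% interval 88.9 to 92.2%) and in 63 graft barcodes (32.1%, 25.7 to 39.2%). Without thinning it was found in 68.2% of 4420 native and 42.3% of 248 graft barcodes, at medians of 2285.5 and 28236 UMIs. The thinned share was 4.21% in native T or NK cells and 0.556% in graft macrophages. In graft smooth muscle it was higher, at 14 of 85 barcodes (16.5%, 9.31 to 26.1%), so GJA5 was not confined to endothelial-marked barcodes. Most graft barcodes thus lacked GJA5 at a depth at which most native ones held it, and the graft barcodes that held it had a mean of 2.71 UMIs against 4.28 in the native ones.

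BMX followed the same distribution, found in 89.2% of native and 46.4% of graft barcodes (39.3 to 53.7%). TEK was found in 89.6% and 76.0%, and KLF4 in 64.1% and 53.6%. NOS3 was found in 84.2% of native and 84.7% of graft barcodes, SOX17 in 13.6% and 13.3%, and TIE1 in 30.7% and 38.3%. For NOS3 and SOX17 the share of barcodes was close in the 2 libraries. For TIE1 it was somewhat higher in the graft (31.4 to 45.5%) than in the artery (28.2 to 33.4%), with overlapping intervals. NPPC was found in 6 native barcodes (0.496%, 0.182 to 1.08%) and in 42 graft barcodes (21.4%, 15.9 to 27.8%), whose mean was 12.6 UMIs.

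**Figure D3:**
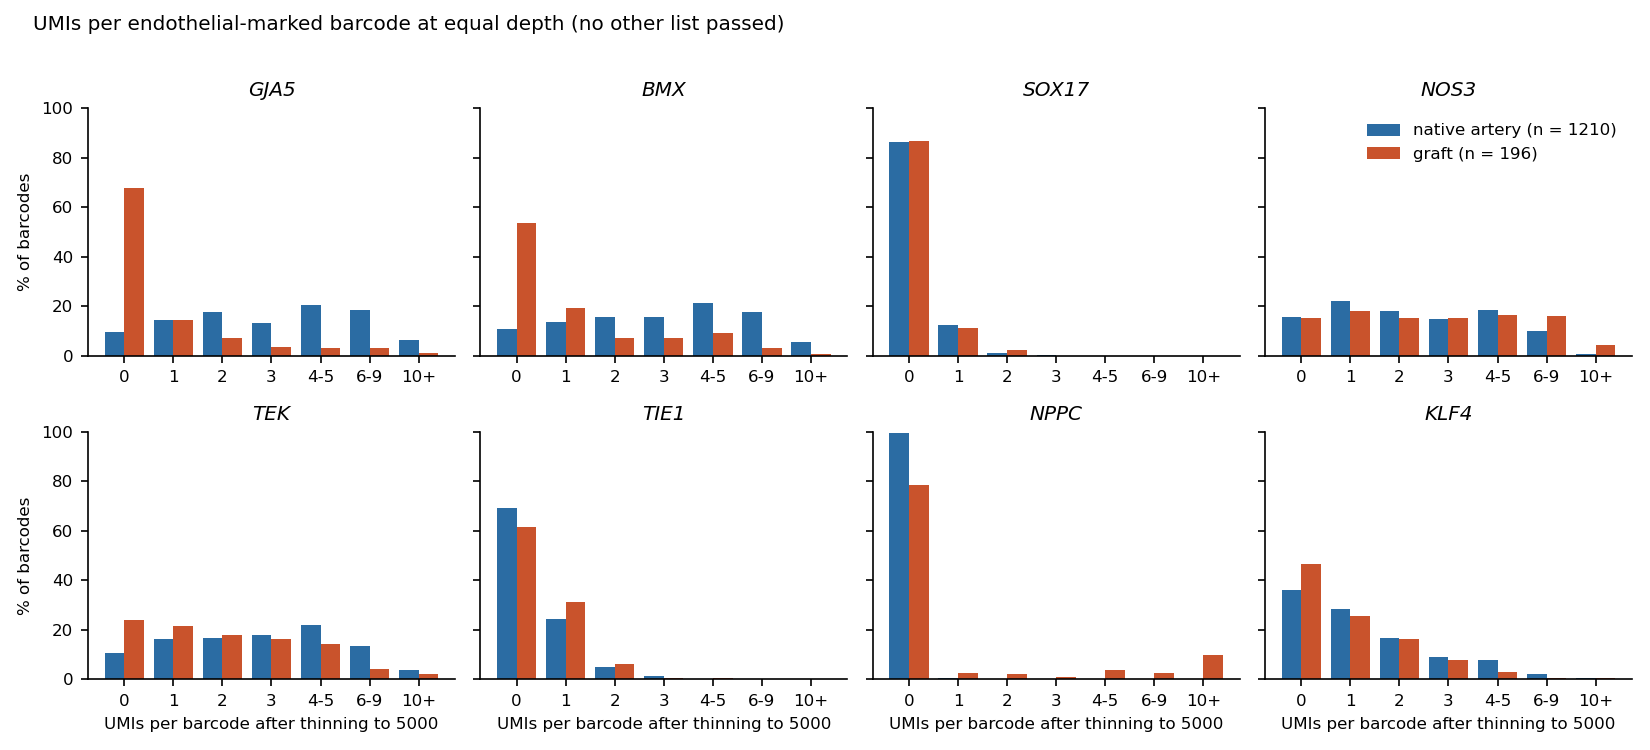
Share of barcodes (%) by UMIs of each gene after thinning to 5000 UMIs, in endothelial-marked barcodes passing no other list, for 1210 native (blue) and 196 graft (orange) barcodes. GJA5 and BMX are at 0 in most graft barcodes, NOS3 has similar shares in both libraries, and NPPC is at 0 in most graft barcodes with a tail at 10 or more UMIs.

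At full depth these barcodes gave the same picture of a divided graft population. The median barcode had 649 CPM of GJA5 in the artery and 4.10 CPM in the graft, where 98 of 196 barcodes held none and 17 (8.67%) lay above the native median. The 20 graft barcodes with the most GJA5 held 69.7% of all its UMIs, against 28.9% for the 121 native barcodes with the most. For NPPC the top 20 graft barcodes held 89.1% of the UMIs and 117 barcodes held none. NOS3 was spread more evenly, with a median of 452 CPM in the artery and 550 CPM in the graft and with 42.4% of graft UMIs in the top 20 barcodes.

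GJA5, BMX and NPPC tended to lie in the same graft barcodes. After thinning, BMX was found in 85.7% of the graft barcodes with GJA5 and in 27.8% of those without, and NPPC in 46.0% and 9.77%. NOS3 differed less, at 92.1% and 81.2%, and KLF4 was at 54.0% and 53.4%. Spearman's rho across the 196 graft barcodes, which share 1 library and 1 thinned depth, was 0.58 for GJA5 and BMX, 0.43 for GJA5 and NPPC and 0.41 for NOS3 and NPPC. In the 1210 native barcodes it was 0.09 for GJA5 and BMX, and for GJA5 and NOS3 it was 0.23. These correlations are descriptions of single libraries.

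The graft barcodes were then divided into the 63 with and the 133 without GJA5 at 5000 UMIs, a division chosen after these values were seen, and summed at full depth. The levels of GJA5 itself, 475 CPM with and 15.9 CPM without, follow from the division. BMX was at 455 CPM in the barcodes with GJA5 and 57.1 CPM in those without, 7.96-fold higher (7.11 to 8.92). NPPC was at 1412 and 118 CPM, 12.0-fold higher (11.1 to 12.9). TEK was at 471 and 333 CPM, KLF4 at 241 and 161, NOS3 at 794 and 749, TIE1 at 96.1 and 86.4 and SOX17 at 39.2 and 33.8 CPM. So 2 of the other 7 genes, BMX and NPPC, were at least 2-fold higher in the barcodes with GJA5, where 8.82% of 13201 genes were and 11.3% were at least 2-fold lower, and 5 were within 2-fold. In the artery, the 1097 barcodes with GJA5 had 741 CPM of BMX and the 113 without had 574 CPM, a smaller difference. At full depth, however, those 113 barcodes still had 151 CPM of GJA5, and 46.9% of them held it. Of the 133 graft barcodes without GJA5 at 5000 UMIs, 26.3% held it at full depth. The divisions of the 2 libraries are therefore not alike.

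Of 20 arterial genes, 11 were at least 2-fold higher in the graft barcodes with GJA5 and 1 was lower, beside 8.82% and 11.3% of all counted genes. Among them, chosen after their values were seen, DLL4, the arterial Notch ligand, was at 119 CPM with and 2.05 CPM without GJA5 (267 and 16 UMIs). The Notch target HEY1 was at 32.0 and 2.05 CPM, and EFNB2, which encodes the arterial ligand ephrin-B2, was at 128 and 25.6 CPM. SEMA3G, an endothelial semaphorin, was at 479 and 50.5 CPM. Of 9 venous genes counted, 1 was higher and 4 were lower, beside the same 8.82% and 11.3%. ACKR1, the chemokine-binding receptor of venules, had 0 UMIs with GJA5 and 67 UMIs without (8.60 CPM), and SELE, the inducible leukocyte adhesion receptor, had 0 and 193 UMIs (24.8 CPM). EMCN, a sialoprotein of veins and capillaries, was at 135 and 409.6 CPM, while NR2F2, a factor of venous identity, was at 81.4 and 42.4 CPM, so not all venous genes had 1 direction.

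**Figure D4:**
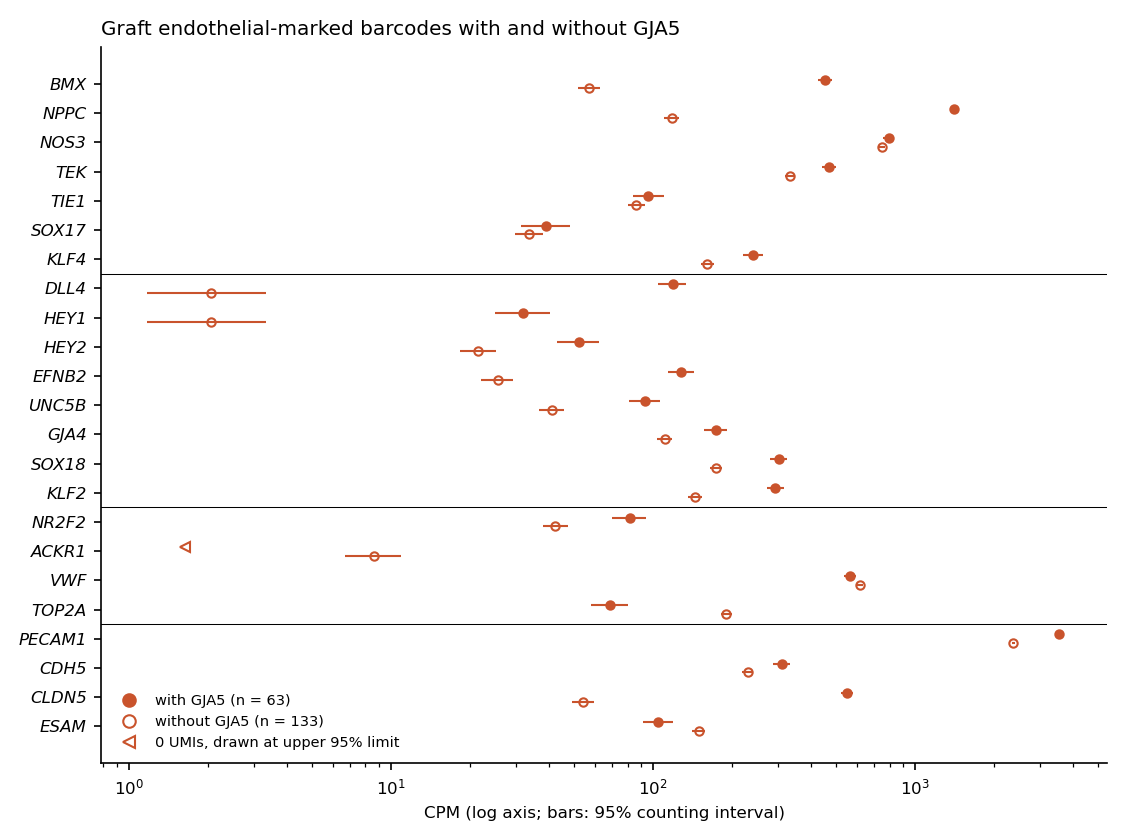
CPM (log axis, 95% counting intervals) in the 63 graft endothelial-marked barcodes with GJA5 (filled) and the 133 without (open), after thinning set the division; lines part the genes of interest, arterial and flow genes, venous and cycling genes, and the genes of the endothelial rule. BMX, NPPC, DLL4, HEY1, EFNB2 and CLDN5 are several-fold higher with GJA5, while NOS3, TIE1 and SOX17 nearly coincide.

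Depth and other markers also differed between these barcodes. Those with GJA5 had a median of 27755 UMIs and those without 43629, and the summed endothelial markers were at 4502 and 2803 CPM, with CLDN5, a tight-junction gene of the rule, at 551 and 53.9 CPM. Smooth muscle markers were at 479 and 663 CPM, fibroblast markers at 937 and 560.2 and macrophage markers at 55.2 and 93.0 CPM. TOP2A, a gene of dividing cells, was at 68.5 and 191 CPM. The median mitochondrial share was 2.39% with GJA5 and 3.38% without. The part of these differences in the contrast was not tested. Only PECAM1, of the 4 rule genes, was detected in 3 of the 63 and in 11 of the 133 barcodes.

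Genes of related pathways were compared in barcodes passing no other list, where 15.4% of all counted genes were at least 2-fold higher in the graft, 16.8% were lower and the median log2 ratio was -0.02. In the same barcodes the summed smooth muscle markers were at 336 CPM in the artery and 620.4 CPM in the graft, fibroblast markers at 264 and 642 CPM and macrophage markers at 115 and 90.2 CPM, and their part in the differences was not tested. Of 20 arterial genes 4 were at least 2-fold higher in the graft (DLL4, HEY1, UNC5B and SOX7) and 2 were lower (FBLN5 and LTBP4), with a median log2 ratio of -0.19. MECOM, the most abundant, was at 1646 CPM in the artery and 858 CPM in the graft, and SEMA3G at 212 and 146 CPM. DLL4 was at 5.27 and 28.0 CPM, 5.31-fold higher in the graft (4.19 to 6.79). LTBP4 was at 828 and 170 CPM, 4.86-fold lower in the graft, and FBLN5 at 165 and 35.3 CPM, 4.67-fold lower. These 2 deficits were about as large as that of BMX. Of the 20 arterial genes listed, 14 were within 2-fold, some of them lower in the graft, such as MECOM and SEMA3G. A deficit as large as that of GJA5 and BMX was therefore not shared by most arterial genes listed. Of 10 venous genes 6 were higher and 1 was lower, beside the 15.4% and 16.8% of all counted genes, with a median of 1.24 against -0.02. EMCN was at 62.9 and 345 CPM and SELP, the P-selectin gene, at 265 and 655 CPM, whereas VWF, which encodes von Willebrand factor, was at 492 and 600.5 CPM. NR2F2, the factor of venous identity, was near its native level, at 54.6 CPM in the artery and 51.2 CPM in the graft.

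Flow response genes differed in both directions. Of 23 counted, 7 were at least 2-fold lower in the graft and 3 were higher, beside 16.8% and 15.4% of all counted genes, with a median log2 ratio of -0.35. The list was not divided by whether flow raises or lowers a gene, so these counts do not measure a response to flow. KLF2, the main shear-induced factor beside KLF4, was at 568 CPM in the artery and 179 CPM in the graft, 3.18-fold lower (3.02 to 3.34). THBD, the thrombomodulin gene, was at 321 and 155 CPM, and ID1 was at 698 and 524 CPM. The 3 higher genes were ENG, which encodes the TGF-beta family co-receptor endoglin, at 157 and 619 CPM, CCN2, a matricellular gene, at 366 and 788 CPM, and KDR, a VEGF receptor gene, at 17.3 and 74.7 CPM. Within the graft KLF2 was 2.03-fold higher in the barcodes with GJA5 than in those without.

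**Figure D5:**
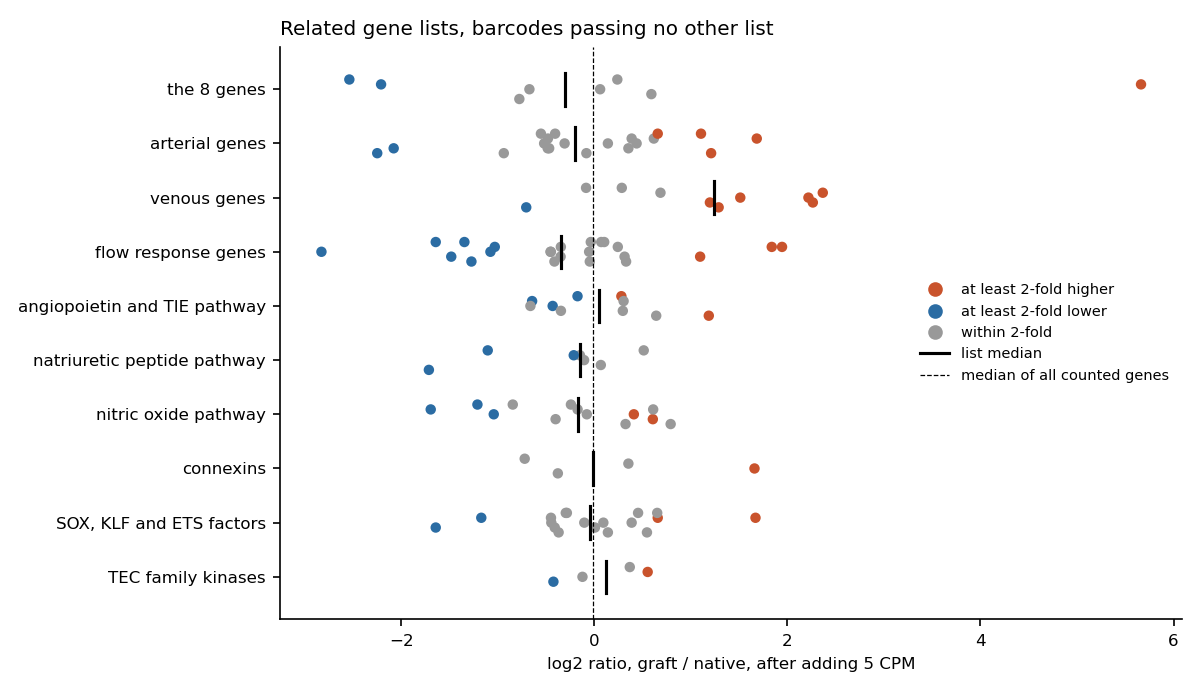
Log2 ratio of graft to native CPM, after adding 5 CPM to each, for every counted gene of the related lists in barcodes passing no other list; colours mark ratios past 2-fold before that addition, thick lines list medians and the dashed line the median of all counted genes. Most venous genes lie to the right of the dashed line, flow response genes lie on both sides, and NPPC is the point farthest right among the 8 genes.

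In the angiopoietin and TIE list 2 of 10 genes were higher and 3 lower, beside 15.4% and 16.8% of all counted genes. PTPRB, the phosphatase that restrains TEK, was at 537 CPM in the artery and 422 CPM in the graft, and FOXO1, a factor held back by TEK signalling, was at 212 and 489 CPM. The ligand genes were scarce in the barcodes passing no other list, with 23 and 27 UMIs of ANGPT1 and 48 and 46 of ANGPT2. Among all endothelial-marked barcodes there were 72 native and 353 graft UMIs of ANGPT1, and 57 and 66 of ANGPT2. In the nitric oxide list 2 of 13 were higher and 3 lower, close to the 15.4% and 16.8% of all counted genes. CAV1, whose product binds and restrains nitric oxide synthase, was at 508 and 217 CPM and NOSTRIN, a trafficking partner, at 160 and 75.2 CPM. GCH1, which makes its cofactor, was at 126 and 195 CPM.

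In the natriuretic peptide list 0 of 7 counted genes were higher and 3 were lower, beside the 15.4% and 16.8% of all counted genes. NPR2, its signalling receptor, was at 17.7 CPM in the artery and 15.5 CPM in the graft, and NPR1 at 39.0 and 57.8 CPM. The clearance receptor gene NPR3 had 2 UMIs in each, and NPPA and NPPB had 0. PDE3A was at 838 and 388 CPM. Of the other gap junction genes, GJA4, the second arterial connexin, was at 96.4 and 125 CPM and GJA1 at 307 and 184 CPM, so the larger deficit belonged to GJA5. GJC1 was higher, at 12.6 and 50.5 CPM. Of 18 SOX, KLF and ETS factors 2 were higher (SOX7 and KLF6) and 2 lower (KLF2 and GATA2), beside the same 15.4% and 16.8%, and SOX18 was at 152 and 200.5 CPM. Of 4 TEC family kinases, the family of BMX, 1 was higher and 1 lower, and TEC itself was at 35.1 and 46.8 CPM.

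Genes of most similar level were sought over 10 pairs of library and class, among 5816 genes of at least 50 CPM in 1 of them, by Pearson's r of log2 values after adding 5 CPM. For GJA5 they were BCAM (r 0.96), ITIH4 and FEZ2, and for BMX CEACAM16 (r 0.98), CMTM8 and CLDN5. For NOS3 they were TM4SF18, SOX18 and CLEC14A, for TEK ADCY4, SEMA3G and MMRN2, for TIE1 PECAM1, TRPM6 and PGM2, and for SOX17 MYCT1, MET and KIF26A. CLDN5 and PECAM1 belong to the endothelial rule, so their high level in the endothelial-marked pairs follows in part from that rule. NPPC was most like TFPI (r 0.99), GUCA2A and STC1. These were at 3.68, 0.408 and 6.43 CPM in native and at 159, 79.7 and 149 CPM in graft endothelial-marked barcodes. Graft barcodes that were not endothelial-marked had 3.80 CPM of NPPC, so its coefficients rest mostly on the graft endothelial-marked pair. KLF4 was most like TNFRSF1A, CEBPD and VAPB. The pairs of 1 library share its free RNA, and the coefficients describe these libraries only.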

How the data were processed

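The deposited values are whole-number UMI counts per gene and barcode in 1 filtered matrix per library, as the authors made them with Cell Ranger 7.2.0, per the file headers. Seurat 5.0.0, R 4.3.3 and bcl2fastq 2.20.0.422 appear in the submitters' processing notes with no role. The genome build is not given in the sources used here. The native matrix held 11371 barcodes with 43183715 UMIs and the graft matrix 1229 barcodes with 36238351 UMIs.

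Barcodes with fewer than 200 genes or over 20% mitochondrial UMIs were removed (266 native, 143 graft). Scrublet in scanpy 1.11.5 marked 2 barcodes in each library at its own threshold, too few for a working call, so the highest scores were removed at 0.8% per 1000 barcodes (1034 native, 12 graft). Other classes needed 2 genes of a marker list and a share of at least 30 (smooth muscle, fibroblast), 20 (macrophage, B or plasma) or 10 (T or NK) per 10000 UMIs. A barcode that met the endothelial rule was counted there first, and B or plasma barcodes (9 native, 6 graft) were too few to give levels. UMIs were summed per library and class and scaled to CPM. Levels have exact Poisson, ratios exact conditional binomial and shares exact Clopper-Pearson 95% intervals (scipy 1.17.1), which cover counting error only. Calls needed 10 UMIs over both libraries and 2-fold, and 0 was set to 3 counts for a call. Thinning drew UMIs without replacement. Ratio and thinning code was tested on simulated data. TMM factors came from edgeR 4.0.16.

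The 8 genes, marker lists and related lists were chosen with earlier results of these data known. The text names the 8 genes, the 4 most abundant genes of a list or fewer, set partners such as NPR2 and GJA4, and the 3 most similar genes of each. DLL4, HEY1, EFNB2, ACKR1, SELE, KDR, TOP2A, NR2F2, NPPA, NPPB, THBD, and the genes listed as past 2-fold, were named after their values were seen. Thinning to 5000 UMIs, the rule without PECAM1 and the combination of depth with no other list were added after seeing the data. Alternatives changed the endothelial rule, depth, doublet and mitochondrial limits, weights, scaling and clusters.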

Additional observations from a re-analysis of the deposited data

How the results depend on the processing

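All 14 alternatives gave 1 of the 8 genes (NPPC) at least 2-fold higher in the graft and 2 or 3 at least 2-fold lower. GJA5 and BMX were past 2-fold lower in 14 of 14, and TEK in 6 of 14. NPPC was 36.7-fold higher after adding 5 CPM and at most 144-fold higher, among barcodes with no other list and at least 5000 UMIs. KLF4 was between 1.57- and 1.74-fold lower. The direction over all marked barcodes held in 11 of 14 alternatives for SOX17, 12 for NOS3 and 7 for TIE1, and none of these passed 2-fold. Taking Leiden clusters in place of the marker rule (1150 native and 179 graft barcodes) gave 6.95-fold lower GJA5 and 4.76-fold lower BMX. These clusters were nearly separate by library: the largest held 1131 native and 3 graft barcodes, the next 6 and 176, and the smallest 13 and 0. This alternative thus mostly compares a native cluster with a graft cluster. Without PECAM1 in the rule, an alternative chosen after seeing the data, GJA5 and BMX were 6.61- and 5.04-fold lower. CLDN5, a gene of that rule, was itself at 475 CPM in the artery and 164 CPM in the graft among barcodes passing no other list. That rule may therefore mark the 2 libraries unequally, which was not tested. No paired analysis was possible because each tissue has 1 library, and none could be left out. Depth limits what shares of barcodes can show for low genes: at 5000 UMIs 86.4% of native and 86.7% of graft barcodes held no SOX17, and 99.5% and 78.6% held no NPPC.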

Other observations

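Some genes outside the lists also differed between the graft endothelial-marked barcodes with and without GJA5. Named here, after their values were seen, are the 4 lowest and, beside GJA5 itself, the 2 highest by log2 ratio (5 CPM added). Only genes that carry a symbol and reach 50 CPM and 30 UMIs in the higher set were ranked. PAK5, a kinase gene, had 3 UMIs in the 63 barcodes with GJA5 and 1220 in the 133 without, of which 30.8% held it. SCRG1 had 0 and 870 UMIs, and 54.9% of the barcodes without GJA5 held it. PLAT, the tissue plasminogen activator gene, had 5 and 1137 UMIs, and SFRP4, which encodes a secreted Wnt antagonist, had 2 and 709. They were found in 15.8% and 18.8% of the barcodes without GJA5, so few barcodes carried them. Graft barcodes that were not endothelial-marked had 15.4 CPM of PAK5, 5.77 of SCRG1, 13.2 of PLAT and 43.6 of SFRP4, against 157, 112, 146 and 91.0 CPM in the barcodes without GJA5. GUCA2A, which encodes guanylin, had 1120 UMIs with and 27 without GJA5, but was found in only 9.52% and 6.02% of these barcodes. STC1, the stanniocalcin gene, had 1883 and 211 UMIs and was found in 52.4% and 17.3%.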
